A study of Mus musculus with 57 samples.

Results

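The genes described here are 9 genes of myelin and of the oligodendrocytes that make it, *Mbp*, *Mobp*, *Cnp*, *Mal*, *Cldn11*, *Mag*, *Mog*, *Ugt8a* and *Gal3st1*. They were taken by symbol, with every probeset that the array annotation gives them, which is 22 of the 22626 probesets of the Affymetrix mouse expression array and 9 of the 11342 genes for which a probeset with 1 symbol was kept. All 22 probesets reached 4.5 (RMA, log2) on at least 1 array, the filter used for every test.

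Total RNA was hybridised from the ventral midbrain (VMB, called the ventral tegmental area in the labels), the nucleus accumbens (NAc) and the prefrontal cortex (PFC) of individual male C57Bl/6NCrl mice, with 19 arrays for each region, each from the RNA of 1 animal. All mice had drunk from a choice of 10% (w/v) ethanol or water in 16 sessions of 18 h, and tissue was taken 6 days after the last session, so no group without ethanol stands beside them. The titles number the arrays of each region within 1 to 20, and no array 20 in VMB, 10 in NAc or 6 in PFC is in the table. A number is called a mouse below, although the labels do not state that it marks the same animal in every region. They give 19 animals, so comparisons of one region with another by number rest on an assumption. Tissue was dissected and measured whole, so fewer oligodendrocytes and less RNA per oligodendrocyte cannot be told apart in any of the values below. One array titled PFC, that of mouse 20, is called ventral tegmental area in other label fields. Its *Mobp* signal was 8.90, where the other PFC arrays lay between 8.14 and 10.09 and the VMB arrays between 12.13 and 12.37, and it correlated across all probesets at a mean r of 0.995 with PFC arrays and 0.955 with VMB arrays. It was kept as PFC, and results are given without it where they differ.

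Oligodendrocytes wrap axons in myelin, a stack of membrane rich in lipid that speeds conduction. Mature cells switch on a common set of genes for it. Some encode the proteins that hold the layers together, others the adhesion molecules and junctions at the axon and between the wraps, and others the enzymes that make galactolipids, the characteristic lipids of the sheath. In the mouse brain this program is known to depend on the transcription factors SOX10 and MYRF. Fibre tracts hold much myelin and the upper layers of cortex little.

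The start regions of 4 of these genes are shown because 7 of the other 8 genes rose with *Mog* between mice in PFC, or 4 of 8 without the array of mouse 8, as described below. Windows from 250 bases before to 50 bases after a start site (RefSeq, GRCm38.p6) were used for 8 of the 9 genes, all but *Mbp*. They were searched on both strands for the words ACAATG or ACAAAG, to which SOX proteins are known to bind, for CTGGCAC or CTGGTAC, the core of the MYRF motif, and for 3 common promoter elements, the E-box (CAGCTG or CATCTG), the GC box (GGGCGG) and the TATA box (TATAAA). SOX and MYRF words do not overlap in the 4 windows below. A SOX word lay in the first listed window of 4 of 8 genes (*Mobp*, *Cnp*, *Mag* and *Gal3st1*), while 28.8% of 27025 windows with 1 window a gene held one. A MYRF word lay in that of 3 of 8 (*Cnp*, *Mag* and *Mog*), against 7.07% of all windows. The E-box lay in 0 of 8 against 30.4% of all windows, the GC box in 3 of 8 against 35.9% and the TATA box in 0 of 8 against 14.2%. A match is a string of letters and not a measured binding site. The 4 windows were picked after the search because they hold a SOX or MYRF word and their genes rose with *Mog* or are *Mog* itself. Those of *Cldn11*, *Ugt8a* and *Mal*, which also rose with it, hold neither word, and that of *Gal3st1*, which did not, holds a SOX word. The windows of *Mog* (chr17:37023349-37023648, minus strand), *Mag* (chr7:30914814-30915113, minus strand), *Cnp* (chr11:100574689-100574988, plus strand) and *Mobp* (chr9:120149492-120149791, plus strand) follow, 5′ to 3′, with SOX and MYRF words in capitals.
Mog: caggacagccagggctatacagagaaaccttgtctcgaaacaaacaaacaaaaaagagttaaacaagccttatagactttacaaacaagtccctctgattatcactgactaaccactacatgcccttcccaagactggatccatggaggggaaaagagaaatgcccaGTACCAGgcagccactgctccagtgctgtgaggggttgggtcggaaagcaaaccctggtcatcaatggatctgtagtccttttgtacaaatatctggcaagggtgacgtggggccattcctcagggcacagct
Mag: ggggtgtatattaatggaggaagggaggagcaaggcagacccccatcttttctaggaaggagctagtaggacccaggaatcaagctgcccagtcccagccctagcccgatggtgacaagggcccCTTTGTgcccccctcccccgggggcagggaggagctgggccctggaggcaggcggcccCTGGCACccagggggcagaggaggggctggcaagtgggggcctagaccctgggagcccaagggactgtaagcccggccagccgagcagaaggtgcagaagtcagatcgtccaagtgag
Cnp: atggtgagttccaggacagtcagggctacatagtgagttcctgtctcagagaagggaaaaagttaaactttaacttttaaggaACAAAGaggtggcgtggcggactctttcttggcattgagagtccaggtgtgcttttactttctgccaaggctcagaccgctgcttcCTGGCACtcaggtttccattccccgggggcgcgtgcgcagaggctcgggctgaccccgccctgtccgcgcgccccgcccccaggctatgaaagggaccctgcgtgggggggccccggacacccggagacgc
Mobp: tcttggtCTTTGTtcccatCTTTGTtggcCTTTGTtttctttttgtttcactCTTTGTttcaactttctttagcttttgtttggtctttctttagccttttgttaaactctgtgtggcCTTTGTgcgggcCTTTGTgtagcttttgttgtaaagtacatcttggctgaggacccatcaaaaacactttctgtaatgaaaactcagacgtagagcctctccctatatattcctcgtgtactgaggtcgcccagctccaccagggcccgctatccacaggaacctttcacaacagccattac
The *Mog* window holds 1 MYRF word, those of *Mag* and *Cnp* 1 of each kind, and the *Mobp* window 6 SOX words, each written as the reverse complement CTTTGT.

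The first question was how much of each transcript the regions held. On the common scale described next, all but 2 *Mbp* probesets of the 22 averaged highest in VMB and lowest in PFC. The difference between these regions reached 3.69 on the log2 scale for *Mog*. As deposited, some *Mbp* probesets, *Cnp* 1437341_x_at and *Gal3st1* averaged higher in NAc than in VMB. *Mbp* 1433532_a_at averaged 13.55 in NAc and 13.02 in VMB. Because RMA had been run so that array medians differ by region (5.79 to 5.86 in VMB, 6.26 to 6.32 in NAc and 5.660 to 5.702 in PFC), levels between regions were compared on a common scale made by quantile normalization of all 57 arrays together. That step aligns whole arrays and would not remove a difference between regions in how RMA summarised a single probeset, which was not tested. All signals below are log2 RMA on the common scale unless called deposited, with the lowest, median and highest array of a region. Where a gene has several probesets, the brightest stands for it. Levels of different probesets depend on their probes and were not compared with each other.

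Among the structural proteins, *Mbp* encodes myelin basic protein, which seals the cytoplasmic faces of the wraps. Its brightest probeset (1433532_a_at) ran at 12.99, 13.17 and 13.36 in VMB, at 12.89, 13.09 and 13.36 in NAc and at 11.65, 12.10 and 12.84 in PFC. The VMB and NAc arrays overlapped and all PFC arrays lay below both. As deposited, every NAc array (13.39 to 13.71) lay above every VMB array (12.85 to 13.13). These values are near the top of the scale, where the highest deposited signal of any probeset was 13.51 in VMB, 14.17 in NAc and 13.46 in PFC.

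*Mobp*, another small basic protein of compact myelin, ran at 12.13, 12.28 and 12.37 in VMB, at 11.06, 11.30 and 11.58 in NAc and at 8.14, 8.76 and 10.09 in PFC. The regions did not overlap, and the PFC arrays were by far the most scattered. *Cnp*, the cyclic nucleotide phosphodiesterase that keeps channels of cytoplasm open within the sheath, ran at 12.61, 12.78 and 12.84 in VMB, at 11.86, 12.16 and 12.42 in NAc and at 10.12, 10.63 and 11.21 in PFC. *Mal*, a membrane protein that sorts cargo in lipid-rich membranes, ran at 10.92, 11.16 and 11.31 in VMB, at 10.05, 10.27 and 10.46 in NAc and at 7.51, 8.15 and 9.01 in PFC. For both genes the regions were again apart from each other on every array on the common scale. As deposited, VMB and NAc overlapped for *Cnp* (12.40 to 12.72 in VMB, 12.40 to 12.93 in NAc). They also did for *Mal* (10.75 to 11.13 and 10.52 to 10.92) and *Mobp* (11.86 to 12.16 and 11.52 to 12.10). How many of all probesets kept the regions apart was not counted, so the overlaps given for each gene, here and below, are descriptions only.

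*Cldn11* encodes the claudin of the tight junctions that run through central myelin. It ran at 8.94, 9.67 and 9.92 in VMB, at 8.49, 8.71 and 9.10 in NAc and at 6.27, 6.78 and 7.70 in PFC. The lowest VMB array, that of mouse 6, fell within the NAc range. *Mag*, an adhesion molecule of the innermost wrap that faces the axon, ran at 9.86, 10.36 and 10.61 in VMB, at 8.81, 8.99 and 9.24 in NAc and at 6.34, 7.09 and 8.19 in PFC. *Mog*, a protein of the outermost surface of the sheath that appears late in maturation, ran at 8.68, 9.14 and 9.37 in VMB, at 7.39, 7.62 and 7.96 in NAc and at 4.74, 5.33 and 6.38 in PFC. *Mag* and *Mog* kept the 3 regions apart on every array, although the deposited *Mog* signal of 2 of the 19 PFC arrays was below the filter value of 4.5.

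The enzymes of galactolipid synthesis split. *Ugt8a*, which makes galactosylceramide, ran at 9.57, 10.11 and 10.35 in VMB, at 8.57, 8.88 and 9.18 in NAc and at 6.40, 6.81 and 7.67 in PFC, with no overlap on the common scale. *Gal3st1*, which adds sulfate to that lipid, ran at 6.36, 6.89 and 7.35 in VMB, at 6.29, 6.57 and 6.78 in NAc and at 5.98, 6.25 and 6.48 in PFC. Its regions overlapped, and the order of their medians was the same as for the other 8 genes. As deposited, *Ugt8a* overlapped between VMB (9.37 to 10.16) and NAc (8.89 to 9.64). The deposited median of *Gal3st1* was higher in NAc (6.96) than in VMB (6.77).

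**Figure D1:**
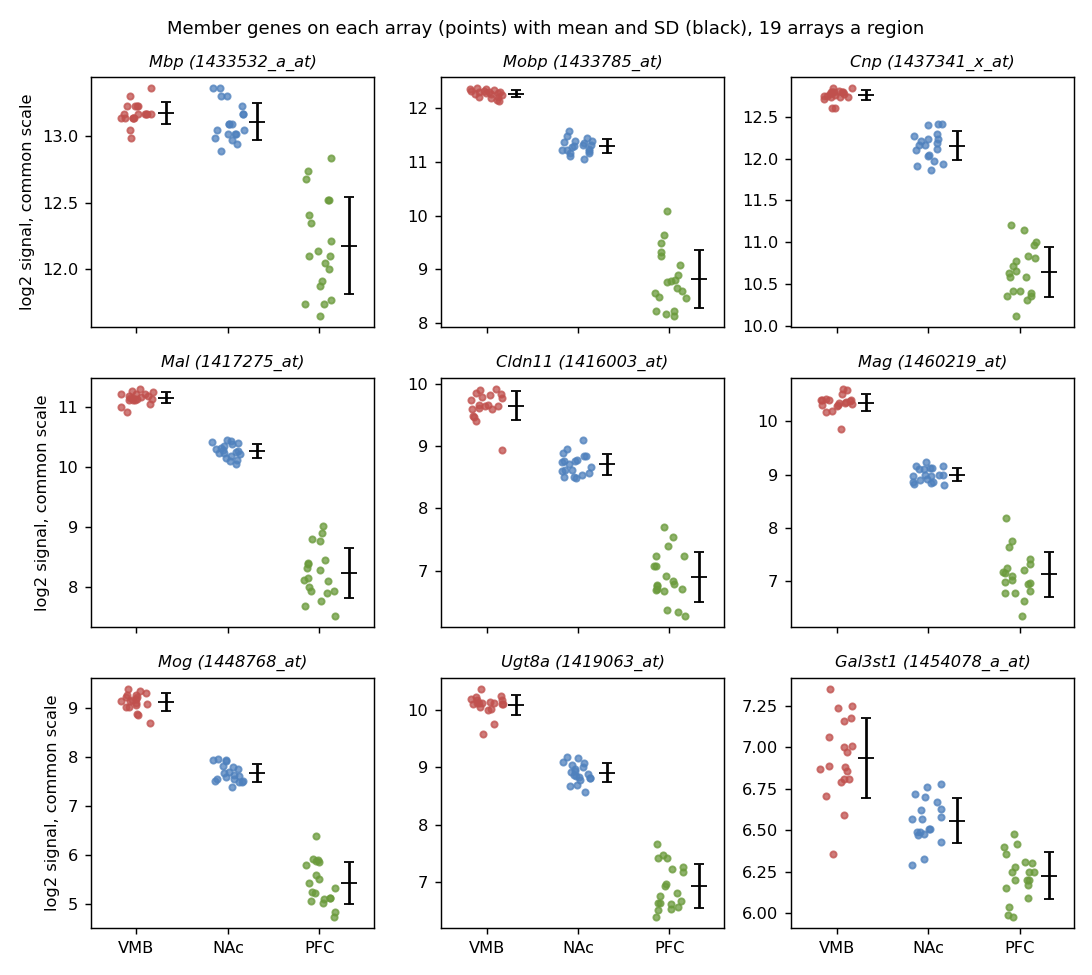
Signal of the 9 genes (log2 RMA, common scale, y axis of its own for each gene) on each of 19 arrays in VMB, NAc and PFC, with the brightest probeset of each gene. Points are arrays and black bars are the mean and SD. The mean is lowest in PFC for each gene. The PFC arrays scatter most except for *Gal3st1*, as for *Mobp* between 8.14 and 10.09, and the regions overlap for *Gal3st1*.

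Differences between regions were tested with limma across 19815 probesets, and a probeset was called at a Benjamini-Hochberg adjusted p under 0.01 and a difference of at least 1. In VMB against PFC, 19 of the 22 probesets were called higher and 1 lower, where 4.37% of all tested probesets were called higher and 5.10% lower. The median difference of the 22 was 2.57, and that of all tested probesets 0.02. By gene, with 1 probeset each, 8 of 9 were called higher. *Mog* averaged 9.11 ± 0.18 in VMB and 5.42 ± 0.44 in PFC (SD, n = 19 each), a difference of 3.69 with an SE of 0.09 (limma adjusted p = 1.07e-42). *Mobp* averaged 12.28 ± 0.07 in VMB and 8.82 ± 0.54 in PFC, a difference of 3.45 with an SE of 0.10. *Mbp*, at 1.002 with an SE of 0.073, was just past the minimum difference, and *Gal3st1*, at 0.71 with an SE of 0.06, did not reach it (limma adjusted p = 3.02e-17).

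In NAc against PFC, 16 of the 22 were called higher and 0 lower, with 2.81% of all tested probesets called higher and 3.68% lower. The median difference was 1.63 for the 22 and 0.03 for all. By their brightest probeset 7 of the 9 genes were called. *Mobp* led at 2.48 with an SE of 0.10, followed by *Mog* at 2.25 with an SE of 0.09, and *Mbp* (0.94) and *Gal3st1* (0.33) stayed under the minimum difference. *Mbp* 1425264_s_at differed in the other direction, by −0.46.

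In VMB against NAc, 8 of the 22 were called higher and 0 lower, with 4.96% of all tested probesets called higher and 4.49% lower. The median difference of 0.96 lay just under the minimum of 1, where that of all tested probesets was −0.02. The 3 genes called by their brightest probeset were *Mog* at 1.45 (SE 0.09), *Mag* at 1.35 (SE 0.09) and *Ugt8a* at 1.18 (SE 0.08). *Mobp* (0.98), *Cldn11* (0.94) and *Mal* (0.89) fell short of the minimum by little, while *Mbp* differed by 0.06 with an SE of 0.07 (limma adjusted p = 0.408). The *Mbp* probesets 1425264_s_at and 1425263_a_at lay lower in VMB, by −0.90 and −0.73. This comparison rested on the scaling. With the deposited values 2 probesets were called higher and 2 lower, and with arrays centred on their medians 5 were called higher and 1 lower.

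The scaling also set how many of all called probesets were higher. That share was 46.1% in VMB against PFC, 52.5% in VMB against NAc and 43.3% in NAc against PFC on the common scale. With the deposited values it was 59.4%, 8.84% and 96.4% in the same order, where the median of all probesets was shifted by 0.18, −0.55 and 0.72. The deposited values gave 19 member probesets called higher in VMB against PFC and 18 in NAc against PFC, and the 2 *Mbp* probesets 1425264_s_at and 1425263_a_at stayed lower in VMB than in PFC under each of the 3 scalings.

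**Figure D2:**
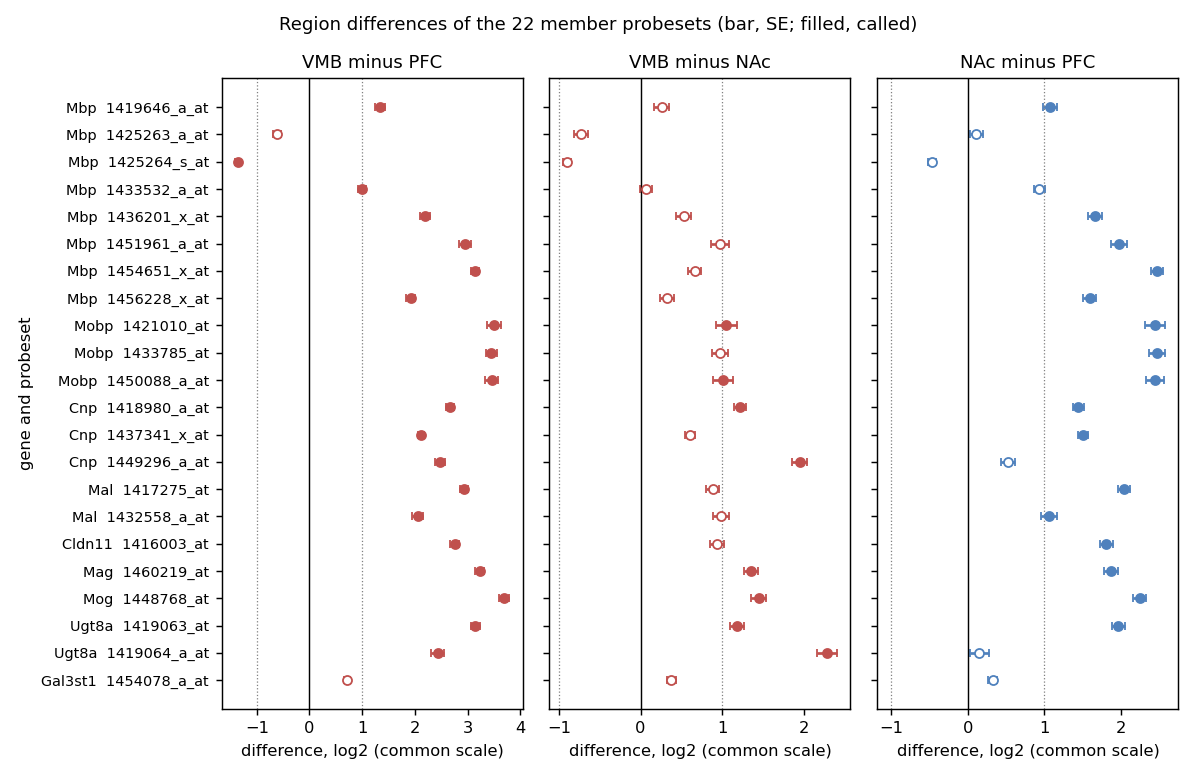
Differences between regions (log2, common scale, x axis) for the 22 probesets (y axis, by gene), with the SE as a bar and filled points for called probesets. Dotted lines mark a difference of 1 in either direction. The points lie furthest right in VMB minus PFC, with *Mog* at 3.69, and 2 *Mbp* probesets lie left of 0 there.

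The 8 probesets of *Mbp* did not all follow one order. Of these, 6 averaged 12.55 to 13.35 in VMB, 11.58 to 13.11 in NAc and 9.60 to 12.17 in PFC. The other two were lowest in VMB. Probeset 1425264_s_at averaged 6.94 ± 0.18 in VMB, 7.84 ± 0.17 in NAc and 8.30 ± 0.12 in PFC, and was called lower in VMB than in PFC by 1.36 with an SE of 0.05 (limma adjusted p = 1.45e-33). Probeset 1425263_a_at averaged 6.55 ± 0.22 in VMB, 7.28 ± 0.32 in NAc and 7.16 ± 0.26 in PFC, so it was highest in NAc. Its difference of −0.62 between VMB and PFC was under the minimum, and that of 0.12 between NAc and PFC did not pass (limma adjusted p = 0.203). The files do not say which *Mbp* transcripts the probesets detect. Between mice in PFC this pair correlated with each other at r = 0.522, and at −0.287 to −0.005 with the other 6, which correlated among themselves at 0.881 to 0.993. These are descriptions over 19 arrays that share a gene.

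**Figure D3:**
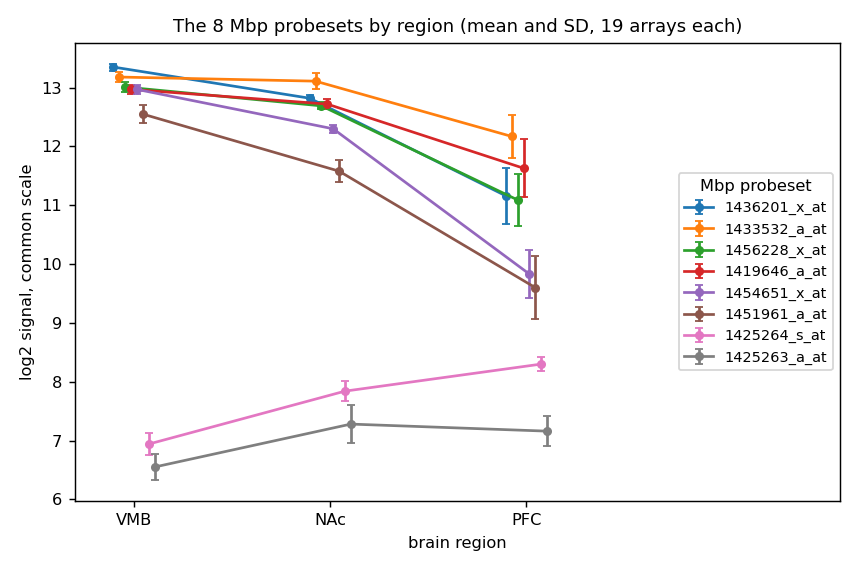
Mean signal (log2 RMA, common scale, y axis) of the 8 *Mbp* probesets in VMB, NAc and PFC, with the SD over 19 arrays as bars. The lines of 6 probesets fall towards PFC, while 1425264_s_at and 1425263_a_at, at 6.55 to 8.30, are lowest in VMB.

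Probesets of other genes also differed in how NAc stood. *Ugt8a* 1419064_a_at averaged 8.43 ± 0.49 in VMB, 6.14 ± 0.37 in NAc and 5.99 ± 0.30 in PFC, so NAc exceeded PFC by 0.15 with an SE of 0.12, while the brighter *Ugt8a* probeset gave 1.97. *Cnp* 1449296_a_at gave 0.53 for NAc against PFC, and the brightest *Cnp* probeset 1.51. The 3 *Mobp* probesets gave 2.45 to 2.48 in that comparison.

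Other genes of the same cells were followed through a list of 34 further myelin and oligodendrocyte genes. In VMB against PFC 28 were called higher and 1 lower, with a median difference of 2.16. The 3 with the greatest differences were *Ppp1r14a*, an inhibitor of protein phosphatase 1, at 4.004 with an SE of 0.093, *Aspa*, which breaks down N-acetylaspartate, at 3.16 with an SE of 0.08, and *Gpr37*, an orphan receptor of oligodendrocytes, at 3.08 with an SE of 0.08. Transcription factors of the lineage were among those called, with *Myrf* at 2.55, *Olig1* at 2.16, *Nkx6-2* at 2.01, *Sox10* at 1.52 and *Olig2* at 1.04. The enzymes that break down the sheath's galactolipids were not, *Galc* at 0.41 and *Arsa* at 0.36. *Plp2*, which despite its name is no myelin protein, was the 1 lower gene at −1.16. In NAc against PFC 21 of the 34 were called higher and in VMB against NAc 14, with none called lower in either. Markers of oligodendrocyte precursors were called higher for 2 of 6 in VMB against PFC, with a median difference of 0.17. The pair called was *Olig1* and *Olig2*, which are also on the list of 34, and the other 4 (*Pdgfra*, *Cspg4*, *Vcan* and *Ptprz1*) differed by −0.13 to 0.20.

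Markers of other cells moved between the regions as well. In VMB against PFC 3 of 9 astrocyte markers were called higher and 1 lower, 0 of 8 microglial markers were called, 4 of 5 dopamine neuron markers were higher and 4 of 4 cortical neuron markers lower. The mean level of the dopamine neuron list ran from 7.206 to 7.600 in VMB, 5.703 to 6.016 in NAc and 4.462 to 4.729 in PFC, and that of the striatal list from 6.92 to 7.28 in VMB, 9.74 to 10.25 in NAc and 6.38 to 6.68 in PFC. By list mean the VMB arrays were thus highest for the dopamine neuron list and the NAc arrays for the striatal one. The dopamine neuron list was not uniform. In VMB against NAc 3 of its 5 markers were called higher and 1, *Nr4a2*, lower (−1.54, SE 0.09). The 2 Schwann cell markers on the array went apart. *Pmp22*, a protein of peripheral myelin, averaged 9.07 in VMB, 7.52 in NAc and 7.05 in PFC, and was called higher in VMB than in PFC (2.01, SE 0.05) and than in NAc (1.54, SE 0.05). *Egr2*, a transcription factor of Schwann cells, averaged 3.22 in VMB, 4.59 in NAc and 4.06 in PFC, and was called lower in VMB than in NAc (−1.37, SE 0.09). The *Egr2* means in VMB and PFC were under the filter value of 4.5 and that in NAc near it, so this difference lies near the floor. The choroid plexus list, of 3 genes, ran from 4.80 to 6.97 in VMB, 4.39 to 4.89 in NAc and 4.36 to 4.65 in PFC. The part of other cells in the differences of the 9 genes was not tested.

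The next question was how far the arrays of a region, each from a separate mouse of the same inbred strain, differ from each other. In PFC the 9 genes, apart from *Gal3st1*, were among the most variable on the array. The array with the highest signal exceeded the lowest by 3.88-fold for *Mobp*, 3.61-fold for *Mag* and 3.12-fold for *Mog* (whose lowest array had a deposited signal of 4.42, under the filter value), against 1.18-fold, 1.68-fold and 1.61-fold in VMB and 1.43-fold, 1.34-fold and 1.48-fold in NAc. For *Gal3st1* that ratio was 1.41-fold in PFC, 1.98-fold in VMB and 1.40-fold in NAc. The SD of *Mobp* in PFC, 0.54, ranked 26 of 11342 genes, and that of the other 7 exceeded 98.0% to 99.5% of genes, where the median gene had an SD of 0.13. In VMB the SD of *Cnp* exceeded that of 0.899% of genes, *Mobp* 1.61%, *Mbp* 4.28% and *Mal* 9.13%, while the other 5 exceeded 54.6% to 87.5%, with *Gal3st1* and *Cldn11* at the top. In NAc the 9 genes were spread between 28.0% and 66.1%.

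Spread was compared between regions with limma on the absolute deviation of each array from its region's median, a test chosen after the data were seen. In PFC against VMB, 18 probesets (0.0908% of those tested) had a larger spread at an adjusted p under 0.01, and 41 (0.207%) a smaller one. Of the 22, 10 were larger and none smaller, 6 of *Mbp*, 2 of *Mobp* and 1 each of *Cnp* and *Mal*. In PFC against NAc, 8 probesets (0.0404%) had a larger and 2 (0.0101%) a smaller spread, and 3 of the 22 were larger, all of *Mbp*. *Mog* did not pass in either, with an SD of 0.44 in PFC, against 0.18 in VMB and 0.18 in NAc (limma adjusted p = 0.0299 and 0.0719). In NAc against VMB, 2 probesets (0.0101%) were larger and 34 (0.172%) smaller, with 0 of the 22 among them by limma and 1 each way at an unadjusted p under 0.05. The called probesets of *Mbp*, and those of *Cnp* (12.61 to 12.84) and *Mobp* (12.13 to 12.37) that stand for their genes, lay near the top of the scale in VMB, and the part of this in the spread was not tested.

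Within PFC the genes were high or low together on the same arrays. Within a region each array is a separate animal, so a difference between animals cannot be told apart from one of dissection, RNA or array. In PFC mouse 8 was highest for 8 of the 9 genes and next to the highest, mouse 19, for *Gal3st1*. Mouse 19 was among the highest 3 arrays for all 9 genes and mouse 12 for 5. At the other end, mouse 2 was among the lowest 3 for 8 genes, mouse 4 for 7 and mouse 10 for 5. The array of mouse 8 did not stand apart over all probesets, with a mean r of 0.995 with the other PFC arrays, whose own values ran from 0.991 to 0.996. Its level was also the highest of the 19 for the list of 34 genes (7.43, others 6.81 to 7.30). For oligodendrocyte precursor markers it was barely above the next array (7.339, others 7.133 to 7.336), and that list shares *Olig1* and *Olig2* with the 34. It ranked 3 for cortical neuron, 4 for general neuron, 6 for striatal neuron and 7 for astrocyte markers.

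**Figure D4:**
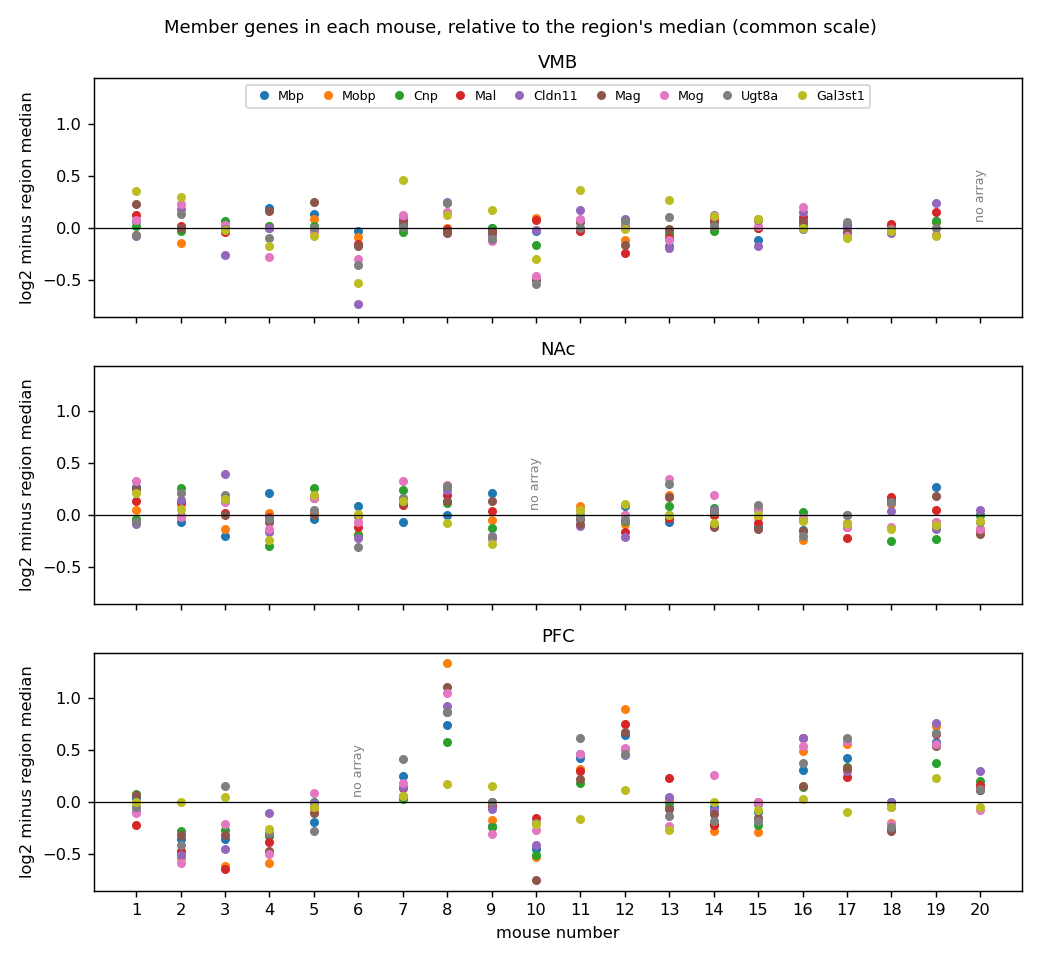
Signal of the 9 genes in each mouse minus the region's median (log2, common scale, y axis) against the mouse number (x axis), in VMB, NAc and PFC. In PFC the genes of a mouse lie together, high in mice 8, 12 and 19 and low in mice 2, 4 and 10, while the values of VMB and NAc are less spread, apart from single genes and from mouse 6 in VMB.

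To ask which genes vary with the myelin genes, all probesets were regressed on *Mog* within each region with limma, at an adjusted p under 0.01. In PFC, 27 of 19814 probesets (0.136%) rose with *Mog* and none fell. Of these, 14 were among the 21 other probesets of the 9 genes, and they covered every gene except *Gal3st1* (r = 0.46). *Mobp* (1433785_at) and *Mbp* (1433532_a_at) both correlated with *Mog* at r = 0.896, *Cldn11* at 0.871, *Ugt8a* at 0.865, *Mag* at 0.853, *Mal* at 0.838 and *Cnp* at 0.832. The median r of the 21 was 0.83, and that of all probesets −0.01. The 2 *Mbp* probesets that were lowest in VMB had r of −0.34 and −0.22.

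Another 7 of the 27 belong to 6 genes of the list of 34, which are *Fa2h*, the hydroxylase for the fatty acids of myelin lipids (r = 0.882), *Ppp1r14a* (0.868), the tetraspanin gene *Tspan2* (0.855 and 0.803), *Septin4* (0.840), *Qdpr*, which regenerates tetrahydrobiopterin (0.826), and *Adamts4*, a protease of the extracellular matrix (0.815). These are all probesets of the genes. By the brightest probeset of each, 5 of the 34 passed, since that of *Adamts4* gave r = 0.458. The remaining 6 were *Trim59*, *Anln*, *Ighm* and 3 probesets that carry no single symbol, named after their values were seen. Markers of astrocytes, microglia, endothelial cells, neurons and precursors were not among the 27. The mean level of the striatal neuron markers correlated with *Mog* in PFC at r = 0.59, that of dopamine neuron markers at 0.54, of cortical neuron markers at 0.47, of precursors at 0.41, of microglia at −0.22 and of astrocytes at −0.31, and their part in the relation was not tested. Single genes carried some of these means. Among the dopamine neuron markers *Nr4a2* gave 0.612, *Ddc* 0.393 and *Th* 0.359, while *Slc6a3* (−0.137) and *Pitx3* (−0.174) were negative. The mean level of that list in PFC, 4.462 to 4.729, lay near the filter value of 4.5. Among the striatal markers *Ppp1r1b* gave 0.745 and the other 3 gave 0.146 to 0.191, and among precursors *Olig1* (0.647) and *Olig2* (0.533), shared with the list of 34, stood above the other 4 at −0.347 to 0.059. Mouse 8 carried much of the count. Without its array 11 probesets rose with *Mog*, 6 of them among the 21, and without mice 8 and 17, the 2 farthest from the median of *Mog*, 6 rose, 4 of them among the 21.

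In NAc and VMB no probeset rose or fell with *Mog* by the same test (limma). At an unadjusted p under 0.05, 5 of the 21 and 1584 of all 19814 probesets passed in NAc, 4 of the 21 and 1039 of all in VMB, and 19 of the 21 and 821 of all in PFC. The median r of the 21 was 0.385 in NAc and 0.020 in VMB. In VMB *Ugt8a* (r = 0.79) and *Gal3st1* (0.69) had the highest values, with limma adjusted p of 0.366 and 0.511. Whether a correlation differs between regions was not tested.

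The 36 pairs of the 9 genes were then correlated over the 19 mice of each region, 108 relations in all. Two-sided permutation p-values were given a Benjamini-Hochberg adjustment over the 108. The pairs share genes, so they are not independent. Pairs of other genes were not correlated in this way, and how the counts below compare with theirs was not tested. With *Mog* as partner, 1584 of 19814 probesets had an unadjusted limma p under 0.05 in NAc, 1039 in VMB and 821 in PFC. In PFC the median r was 0.86 (0.38 to 0.96), and 29 pairs had a positive r at an adjusted p under 0.05 (34 unadjusted). *Mbp* and *Mobp* gave r = 0.958 and rho = 0.948 (permutation p = 1e-05 for each, the smallest that 100000 permutations can give). The lowest r of PFC were those of *Gal3st1*, at 0.38 to 0.61. When the pair of mice with the most extreme signals of the first gene was left out, the median r was 0.815, and without mouse 8 it was 0.819 with 29 pairs at an unadjusted p under 0.05.

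In NAc the median r was 0.40, with 12 positive and 2 negative pairs at an adjusted p under 0.05 (15 and 2 unadjusted). *Cldn11* and *Ugt8a* were the closest at r = 0.751 and rho = 0.761 (permutation p = 0.00022 and 0.00025), and r = 0.706 without the 2 farthest mice. Both negative pairs held *Mbp*, with *Cnp* (r = −0.732, rho = −0.743, permutation p = 0.00043 and 0.00034) and with *Cldn11* (r = −0.641, rho = −0.633, permutation p = 0.00306 and 0.00458). They depended on the probeset. The 7 other *Mbp* probesets correlated with *Cnp* in NAc at −0.47 to 0.78, and *Mbp* 1454651_x_at gave r = 0.78 with *Cnp* and 0.60 with *Cldn11*. The *Cnp* probeset used, 1437341_x_at, itself gave r of −0.187 with *Cnp* 1418980_a_at and 0.170 with *Cnp* 1449296_a_at in NAc. Every pair of *Cnp* in NAc, positive or negative, thus rests on that probeset. In VMB the median r was 0.34, with 7 positive pairs at an adjusted p under 0.05 (13 unadjusted). *Mog* and *Ugt8a* gave r = 0.790 and rho = 0.554 (permutation p = 0.00016 and 0.0152), with r = 0.470 without the 2 farthest mice, and the median over all pairs was 0.12 without them. Mouse 6 was among the lowest 3 VMB arrays for 8 of the 9 genes and mouse 10 for 5.

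**Figure D5:**
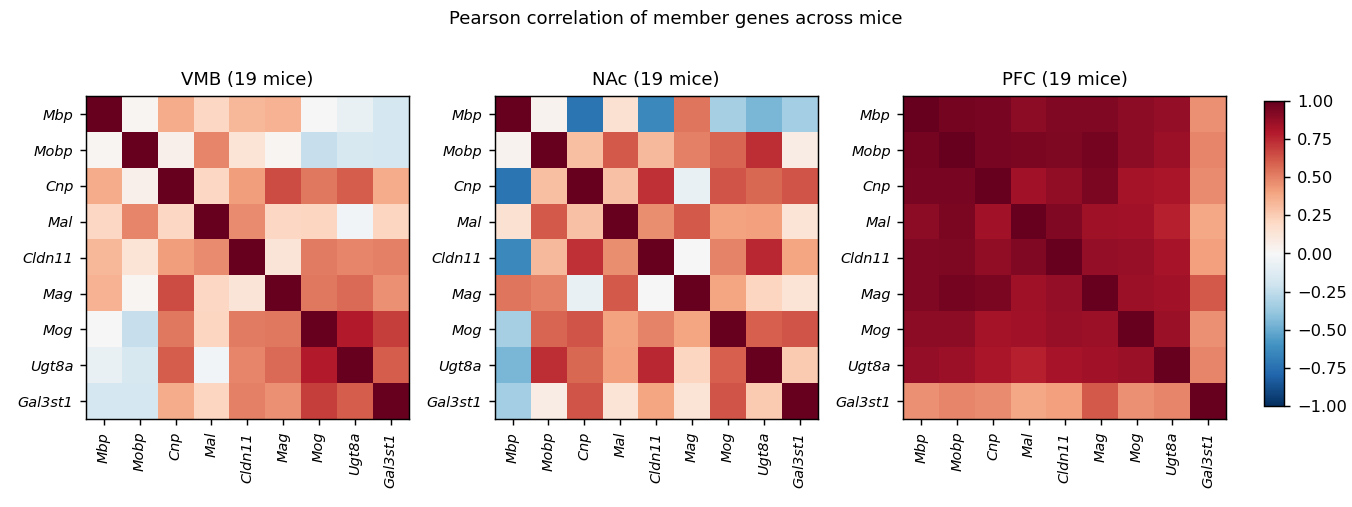
Pearson r between the 9 genes across 19 mice in VMB, NAc and PFC (colour, −1 to 1), with the brightest probeset of each gene. PFC is nearly uniform with a median r of 0.86, *Gal3st1* being the palest there, and the deepest blue cells in NAc are those of *Mbp* with *Cnp* and *Cldn11*.

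Arrays of the same number were also compared between regions. Over the 18 numbers shared by each pair of regions, 27 relations were computed, and r ran from −0.28 to 0.76. *Ugt8a* in VMB and NAc was the 1 relation with an adjusted p under 0.05 (r = 0.759, permutation p = 0.00015, adjusted p = 0.00405; rho = 0.662, permutation p = 0.00369, adjusted p = 0.0996), with r = 0.602 without the 2 farthest mice. If a number does not mark 1 animal in all regions, these values do not compare the regions of a mouse. *Cldn11* in VMB and PFC gave r = 0.603 and rho = 0.513 (permutation p = 0.00842 and 0.0307, adjusted p = 0.114 and 0.414). *Mobp*, the most variable of the 9 in PFC, gave r of −0.07 between VMB and PFC, 0.03 between VMB and NAc and 0.08 between NAc and PFC.

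Across all 57 arrays, after the region means were removed, the genes most like the mean of the 9 were *Aspa* (r = 0.825), *Septin4* (0.808), *Ppp1r14a* (0.803), *Evi2a* (0.797), *Plekhb1* (0.774), *Fa2h* (0.766), *Tspan2* (0.762), *Pde8a* (0.755), *Qdpr* (0.752) and *Gpr37* (0.694). All but *Pde8a* were already on the list of 34. In PFC alone *Tspan2* stood closest of these 10, at 0.97, and in NAc *Plekhb1*, at 0.91, while in VMB none exceeded 0.59. The lowest in VMB were *Tspan2* (0.173), *Evi2a* (0.192) and *Plekhb1* (0.219). Apart from *Gal3st1*, the 9 genes varied most in PFC, so the PFC arrays weigh most in this ranking.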

How the data were processed

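The authors deposited 1 log2 value per probeset and array, made by RMA from Affymetrix mouse expression arrays. GCOS and RMA are named in the submitters' processing notes. Array medians differ by region, so the arrays were quantile normalized together (the common scale), with the deposited and the median-centred values as alternatives. Samples were grouped by the region in their titles. Tests used limma on 19815 probesets that reached 4.5 on at least 1 array (2811 did not), without trend, with Benjamini-Hochberg adjustment over all of them. Regions were called at an adjusted p under 0.01 and a difference of at least 1, and regressions on *Mog* and the test of spread at 0.01. Correlations were tested two-sided by 100000 permutations of the mice. Of the probesets 20380 carry 1 symbol, 691 several and 1555 none, and only single symbols were used, brought to current names through a RefSeq gene table. For list genes and members the probeset with the highest mean stood for the gene. Members named in the text are all 9 genes. Further genes named are list genes within their list's count, the 3 with the greatest differences, and the 10 most alike.

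The members and lists were chosen with earlier results of these data known. Of 46 further myelin and oligodendrocyte genes, 34 have a tested probeset. Within a region each array is a separate animal. That a number marks the same animal in all regions was assumed and is not stated in the labels. Arrays of the same number deviated together only weakly (mean r 0.013 for VMB and PFC, 0.071 for VMB and NAc and 0.056 for NAc and PFC, consensus correlation 0.0546), and a block for the number was an alternative. The number of arrays limits the precision. Ethanol intake of single mice is not in the labels and its relation to these genes was not analysed here. Each test across probesets was tried on simulated data in which 200 probesets were changed. R 4.3.3, limma 3.58.1, statmod 1.5.0, Python 3.11.15, numpy 2.4.6, scipy 1.17.1 and pandas 2.3.3 were used.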

Additional observations from a re-analysis of the deposited data

How the results depend on the processing

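VMB against NAc depended most on the scaling. Its 8 probesets called higher were 2 with the deposited values, 5 with median-centred arrays and 19 with no minimum difference. With the deposited values the difference turned negative for *Mbp* 1433532_a_at (−0.53), 1419646_a_at (−0.37), 1456228_x_at (−0.31) and 1436201_x_at (−0.16), for *Cnp* 1437341_x_at (−0.10) and for *Gal3st1* (−0.16), and in NAc against PFC *Mbp* 1425264_s_at turned to 0.20. With median-centred arrays *Mbp* 1433532_a_at was at −0.06 in VMB against NAc. The 14 probesets rising with *Mog* in PFC were 6 to 16 when 1 array was left out, 6 being the value without mouse 8, and 4 without the 2 arrays farthest from the median of *Mog*. With *Mag* in place of *Mog* 1 probeset rose in VMB. The spread in PFC against NAc passed for 5 probesets with the deposited values, in place of 3. Of the pairs in VMB 36.1% had a positive r at an unadjusted p under 0.05, and 11.1% by Spearman's rho or 21.5% over every probeset. The cause of these changes was not tested. Leaving out 1 array gave 18 to 19 probesets higher in VMB against PFC, 7 to 9 in VMB against NAc and 16 in NAc against PFC. The replicate block, by mouse number, gave 19, 8 and 16 and changed no call of the 22 probesets in the 3 comparisons, and leaving out the PFC array of mouse 20 changed none either. Of 528 values of single probesets under the alternatives, 482 kept direction and call, 13 lost the call, 25 gained it and 8 reversed. The planned covariate from the beta-actin control probesets was not run, because the table holds 0 such probesets.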
